A study of Homo sapiens with 3 samples.

Results

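The circadian receptors and output regulators are 10 transcription factor genes through which the core clock reaches other genes: NR1D1, NR1D2, RORA, RORB, DBP, TEF, HLF, NFIL3, BHLHE40 and BHLHE41. They were taken by name, with their RefSeq spans on GRCh38, from 19974 protein-coding genes on chromosomes 1 to 22 and X, and every MYC peak with its summit inside a gene or within 5000 bp of it was assigned to that gene. Of the 10 genes, 9 had such a peak, with 11 peaks in all, and HLF had none. The peaks come from MYC ChIP-Rx, chromatin immunoprecipitation with mouse NIH3T3 chromatin added as an external reference, in parental U2OS cells, an established human osteosarcoma line that is also widely used as a cellular clock model. The series holds 2 anti-MYC IP libraries and 1 input library of the same line, and the labels name no treatment, no synchronisation of the cultures and no time of collection.

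One list of 9818 peaks was deposited for the whole series, so each fold enrichment and each −log10 q-value below is the authors' own value for 1 peak, without replicate error. The fold is the deposited fold enrichment of IP over input on a linear scale, and how the input entered it is not stated. The −log10 q grows with the certainty of the peak and with sequencing depth, which is unknown here. Over the list, the median fold was 7.78 (quartiles 5.58 and 11.5), the median −log10 q was 47.8 and the median width was 747 bp.

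In the mammalian clock, CLOCK and BMAL1 bind E-boxes, with the letters CACGTG in the canonical form, and drive the genes of their own repressors and of several of the factors described here. MYC with its partner MAX recognises the same letters. The REV-ERB receptors (NR1D1, NR1D2) repress and the ROR receptors (RORA, RORB) activate genes through a shared element with the core AGGTCA, BMAL1 among them. DBP, TEF and HLF, the PAR bZIP activators, bind D-boxes such as TTATGTAA, and NFIL3 represses through the same sites. BHLHE40 and BHLHE41 (DEC1 and DEC2) bind E-boxes and repress there. Ectopic MYC has been reported to alter REV-ERB expression and BMAL1 oscillation in U2OS cells, which is background here, since MYC was not varied.

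Promoter windows of several of these genes are shown first. A canonical E-box lies near a listed start in 4 of the 10 genes, NR1D2, TEF, BHLHE40 and BHLHE41. The MYC summits lie at different distances from it. The windows shown for DBP and NFIL3 hold none. That of BHLHE40 touches no peak, while the upstream NR1D2 window, not shown, lies wholly under the NR1D2 peak. Each line gives the 250 bases upstream of a RefSeq start (GRCh38.p14), read in the direction of transcription. Capitals mark the E-box CACGTG, the receptor core AGGTCA or the D-box TTATGTAA on either strand. The NR1D2 sequence is that of its downstream start (chr3:23945871-23946120, plus strand), the TEF sequence that of its downstream start (chr22:41381692-41381941, plus strand), and the DBP sequence that of its single listed start (chr19:48637380-48637629, minus strand). The NFIL3 sequence is that of its upstream start (chr9:91424627-91424876, minus strand). The BHLHE40 (chr3:4979187-4979436, plus strand) and BHLHE41 (chr12:26125038-26125287, minus strand) sequences are those of their single listed starts.
NR1D2: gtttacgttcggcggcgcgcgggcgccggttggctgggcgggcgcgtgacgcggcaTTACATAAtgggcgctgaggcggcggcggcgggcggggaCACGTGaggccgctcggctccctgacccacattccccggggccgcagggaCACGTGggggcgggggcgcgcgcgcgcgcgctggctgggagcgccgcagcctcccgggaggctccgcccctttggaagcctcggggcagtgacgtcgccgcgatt
TEF: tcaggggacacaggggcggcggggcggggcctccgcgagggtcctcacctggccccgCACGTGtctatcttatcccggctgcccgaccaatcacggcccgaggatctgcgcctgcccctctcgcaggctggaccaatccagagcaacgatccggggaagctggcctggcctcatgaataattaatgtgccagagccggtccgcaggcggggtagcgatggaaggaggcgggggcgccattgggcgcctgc
DBP: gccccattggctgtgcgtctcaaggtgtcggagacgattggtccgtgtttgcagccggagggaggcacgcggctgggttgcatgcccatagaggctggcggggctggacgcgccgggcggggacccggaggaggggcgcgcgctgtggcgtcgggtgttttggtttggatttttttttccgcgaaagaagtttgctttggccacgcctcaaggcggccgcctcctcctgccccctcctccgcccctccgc
NFIL3: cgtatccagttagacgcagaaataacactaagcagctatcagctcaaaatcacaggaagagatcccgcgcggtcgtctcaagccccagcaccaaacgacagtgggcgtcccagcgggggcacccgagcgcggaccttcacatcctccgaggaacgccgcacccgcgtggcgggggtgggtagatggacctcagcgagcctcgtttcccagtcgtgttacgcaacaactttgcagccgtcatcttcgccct
BHLHE40: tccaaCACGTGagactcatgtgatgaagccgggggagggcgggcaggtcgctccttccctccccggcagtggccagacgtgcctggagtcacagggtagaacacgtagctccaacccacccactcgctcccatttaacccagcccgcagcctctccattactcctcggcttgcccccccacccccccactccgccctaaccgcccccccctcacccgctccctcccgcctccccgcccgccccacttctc
BHLHE41: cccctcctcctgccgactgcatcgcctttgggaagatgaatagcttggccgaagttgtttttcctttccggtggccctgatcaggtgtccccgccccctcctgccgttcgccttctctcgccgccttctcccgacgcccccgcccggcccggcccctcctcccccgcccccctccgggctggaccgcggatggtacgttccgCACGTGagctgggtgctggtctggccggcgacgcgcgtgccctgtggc

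NR1D2, which encodes REV-ERBβ, had the highest peak of the group. It covered 1547 bp (chromosome 3, 23944927 to 23946473) with a fold of 12.7 (−log10 q of 110), and 20.4% of all listed peaks had a fold at least as high. Both listed NR1D2 starts, 835 bp apart, lay under this single peak. The summit was 149 bp upstream of the downstream start and 686 bp inside the gene as counted from the upstream start. In the NR1D2 sequence above, the first CACGTG (23945966 to 23945971) was centred 4 bp from the summit and the other (23946016 to 23946021) 46 bp from it. The D-box letters, present as TTACATAA on the strand shown (23945927 to 23945934), were centred 42 bp from the summit. NKIRAS1, an inhibitor of NF-κB signalling, is annotated on the opposite strand across the same summit. Its span ends 590 bp from the summit, so the peak lies at the border of both genes, although the nearest start listed for NKIRAS1 was 28917 bp away.

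NR1D1, which encodes REV-ERBα, had 1 peak of 904 bp (chromosome 17, 40098894 to 40099797) inside the gene. Its fold was 8.81 and its −log10 q 40.7, above the list median in fold and below it in −log10 q. The summit lay 1345 bp downstream of the only listed start, and the peak did not reach the promoter window, which holds no canonical E-box, receptor core or D-box. Both REV-ERB summits lay inside the gene span, but at different distances from the nearest listed start: 149 bp in NR1D2 and 1345 bp in NR1D1. The NR1D1 summit lay beyond the window for which sequence was at hand, so E-boxes at the summits cannot be compared.

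The ROR genes had the lowest peaks of the group. RORA, a gene of 741019 bp, held 1 peak of 552 bp (chromosome 15, 60591764 to 60592315) with a fold of 5.33 (−log10 q of 20.0), and 78.3% of all peaks had a fold at least as high. The summit was 35323 bp downstream of the 1 start listed for RORA, within the annotated antisense RNA gene RORA-AS1. That start, at 60627530, lies inside the gene, whose upstream end is at 61229302, so the summit is much farther from that end. Among all protein-coding genes of 500000 bp and over, 44.3% had a summit inside or within 5000 bp.

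RORB had the weakest peak, 358 bp wide (chromosome 9, 74498329 to 74498686), with a fold of 3.27 (−log10 q of 7.73). Of all listed peaks, 98.1% had a fold at least as high. Its summit lay 1206 bp downstream of the first RORB start and 12 bp from the listed start of the long noncoding RNA gene RORB-AS1. The other RORB start, 118199 bp downstream of the first, had no summit within 1000 bp. None of the ROR promoter windows holds CACGTG.

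**Figure D1:**
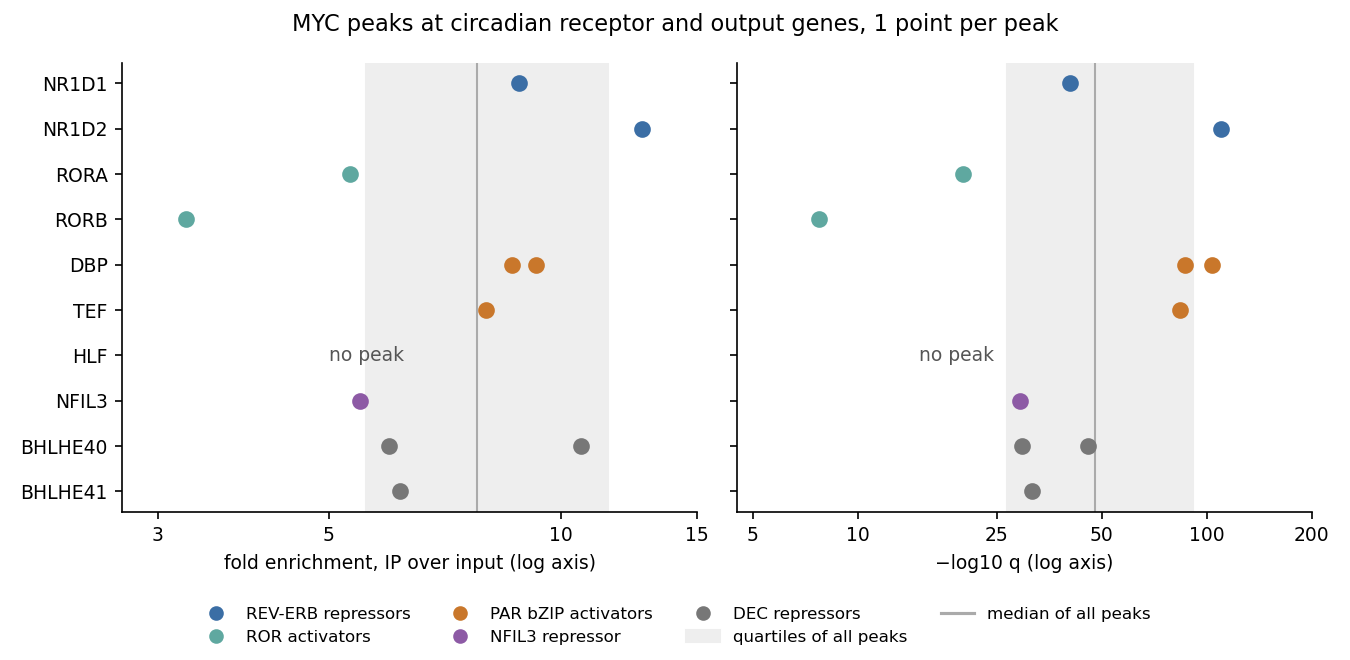
Fold enrichment of IP over input (left) and −log10 q (right) of each MYC peak at the 10 genes, 1 point per peak and both axes logarithmic. The grey band spans the quartiles of all 9818 peaks and the line is their median. NR1D2 at 12.7 is the only fold above the band, while the folds of RORA, RORB and NFIL3 lie below it.

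Among the PAR bZIP activators, DBP and TEF had peaks and HLF did not. DBP was 1 of only 2 genes of the group with 2 peaks. The peak at its start was 1109 bp wide (chromosome 19, 48637199 to 48638307), with a fold of 8.63 (−log10 q of 86.6), and its summit lay 422 bp upstream of the start. The other was 633 bp wide (48634477 to 48635109) and lay inside the gene, 2706 bp downstream of the start, with a fold of 9.28 (−log10 q of 103). The summits were 3128 bp apart. The DBP sequence above lies wholly under the first peak and holds no E-box of the class CANNTG. CA11, a carbonic anhydrase-related gene, has a span that comes to 145 bp from the upstream summit on the side away from DBP, so that summit lies between both genes. The inner summit was 3273 bp from the span of CA11 and 4268 bp from that of SPHK2, a sphingosine kinase gene.

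TEF, which encodes thyrotroph embryonic factor, had a broad peak of 1545 bp (chromosome 22, 41380467 to 41382011) with a fold of 7.99 (−log10 q of 83.7). The peak was at the downstream of its 2 listed starts, which are 14487 bp apart: the summit lay 618 bp upstream of the downstream start and 13869 bp from the upstream one. Both starts have a CACGTG in the window. The one shown above (41381749 to 41381754) is under the peak, 428 bp from its summit, whereas the one at the upstream start (41367260 to 41367265) lay 14062 bp from it, with no peak over the window. The start of a long noncoding RNA gene, LOC105373042, was 587 bp from the summit, slightly nearer than that of TEF.

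HLF, which encodes hepatic leukaemia factor, had no summit inside or within 5000 bp. The nearest was 26613 bp upstream of the gene, with a fold of 4.86 (−log10 q of 14.5). Neither of the HLF promoter windows touched a peak or held CACGTG. No summit in reach means that no peak passed the authors' peak calling there, and does not show that MYC was absent.

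NFIL3, the repressor that competes with the PAR bZIP proteins, had 1 peak of 1087 bp (chromosome 9, 91424039 to 91425125) with a fold of 5.49 (−log10 q of 29.1). It had the summit closest to a listed start of its own gene in the group, 74 bp upstream of the upstream of 2 listed starts, and 868 bp upstream of the other. Both listed starts lie inside the gene, whose upstream end is at 91483497. The sequence above at the upstream start, wholly under the peak, holds no CANNTG. The window of the downstream start holds AGGTCA on the opposite strand (91423836 to 91423841), 862 bp from the summit. NFIL3 therefore combined the summit nearest to a listed start with a fold below the lower quartile of the list.

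The DEC genes had their peaks beside the gene rather than in it. BHLHE40 had a peak of 595 bp upstream (chromosome 3, 4978048 to 4978642), its summit 1155 bp before the start, with a fold of 5.98 (−log10 q of 29.6). A peak of 577 bp (4986752 to 4987328) with a fold of 10.6 (−log10 q of 45.8) lay 1851 bp past the far end of the gene, and 8892 bp from the first. The CACGTG near the BHLHE40 start (4979192 to 4979197) was 912 bp from the nearer summit, and no peak touched that window. The upstream peak lies within BHLHE40-AS1, a long noncoding RNA gene.

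BHLHE41 had the widest peak of the group, 1615 bp (chromosome 12, 26125120 to 26126734), at a fold of 6.19 (−log10 q of 31.5). Its summit was 1115 bp upstream of the start, close to the 1155 bp of BHLHE40. The CACGTG near the BHLHE41 start (26125080 to 26125085) was 1070 bp from the summit and outside the peak, although the peak reached part of the window. The summit also lies inside the span of SSPN, a membrane protein gene on the opposite strand, 4161 bp from the end of that span, and the nearest start listed for SSPN was 69184 bp away.

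**Figure D2:**
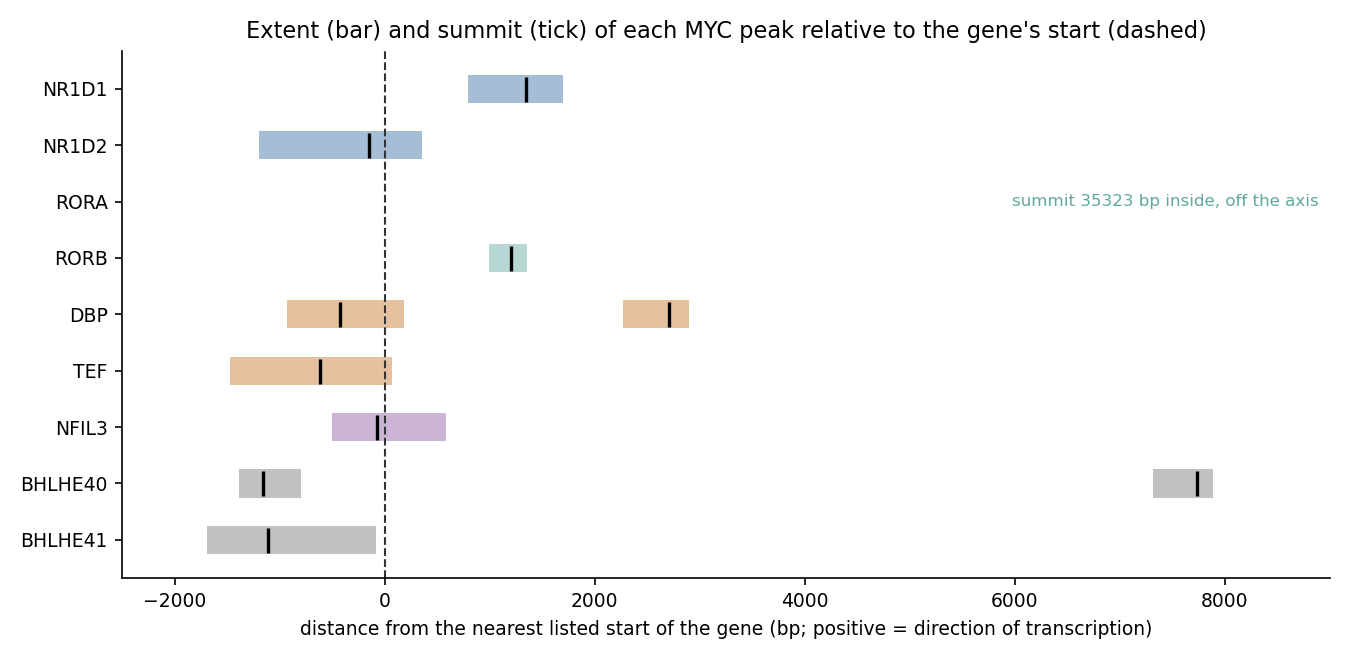
Extent (bar) and summit (tick) of each peak relative to the nearest listed start of its gene, in bp along the direction of transcription. The peaks of NR1D2, TEF and NFIL3 and the upstream DBP peak cover a start, the inner DBP peak and those of NR1D1, RORB, BHLHE40 and BHLHE41 do not, and the RORA summit at 35323 bp is off the axis.

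Across the group, 9 of 10 genes had a summit in reach, against 47.7% of all protein-coding genes. With only the stronger 50% of peaks by −log10 q, 3 of 10 had one (NR1D2, DBP and TEF), against 27.7% of all genes, a share near that background. By gene length, the count was 4 of 4 members under 10000 bp (33.6% of all such genes), 3 of 4 from 10000 to below 100000 bp (53.2%) and 2 of 2 of 100000 bp and over (53.3%). For 2 of the 10, DBP and BHLHE40, there were 2 summits, against 7.84% of all genes with 2 or more. The members were named with earlier results of these data known, and they are too few for these shares to mark the group as particular.

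Close to the gene borders the count depended on the measure. A summit lay within 1000 bp of a span end for 2 of 10 members, NR1D2 and DBP, against 37.6% of protein-coding genes. Counting any overlap of a peak with that window, there were 6 of 10, against 39.3%, and with summits within 5000 bp of an end also 6, against 44.0%. Within 1000 bp of a listed start there were 4 of 10, NR1D2, DBP, TEF and NFIL3, against 41.5% of the 15812 genes with a listed start. Of the 11 member peaks, 5 (45.5%) had the summit at least 1000 but less than 5000 bp from the nearest start of their gene: NR1D1, RORB, the inner peak of DBP, the upstream peak of BHLHE40 and that of BHLHE41. Among 9395 pairs of a protein-coding gene with a listed start and a summit in its reach, measured in the same way, 7.33% fell in this class, 71.7% lay under 1000 bp and 20.9% at 5000 bp or more. The median distance was 1155 bp for the member peaks and 240 bp for all pairs. The listed starts are incomplete, so a summit far from each of them can lie at a start that the table lacks.

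**Figure D3:**
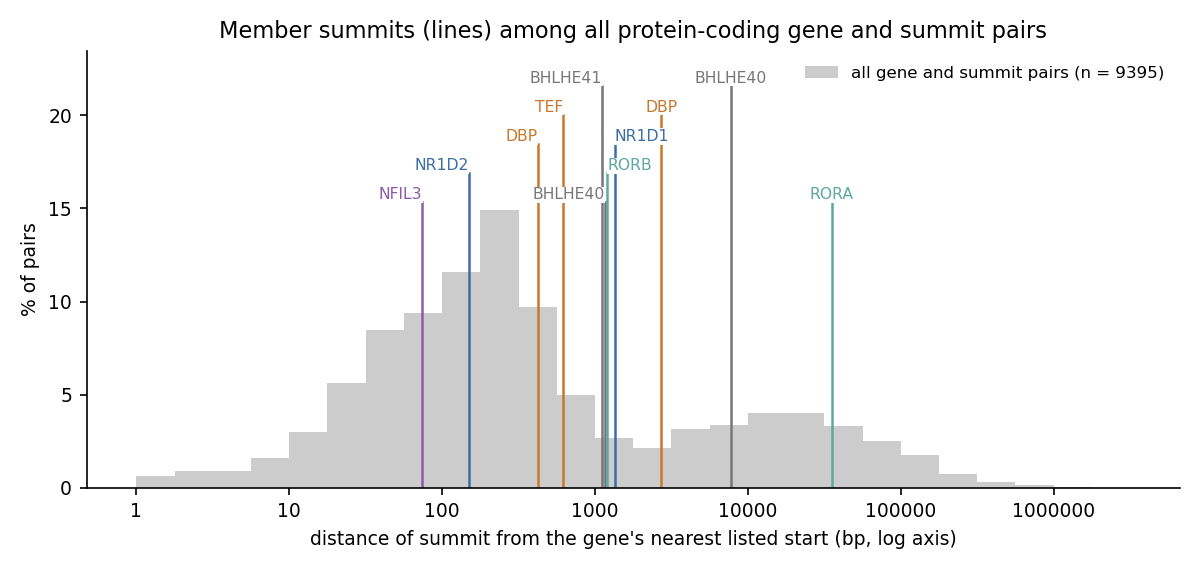
Distance from each summit to the nearest listed start of the gene it lies in or near, on a log axis, for all 9395 gene and summit pairs (grey, per cent of pairs) and for the member peaks (coloured lines, heights without meaning). Most pairs lie under 1000 bp, and 4 member summits lie between 1115 and 1345 bp. Distances are without direction: of these 4, BHLHE41 and BHLHE40 lie upstream of the start and RORB and NR1D1 downstream.

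The fold of the peaks was ordinary for the list, while the median of their −log10 q was somewhat lower. The member peaks had a median fold of 7.99, against 7.78 over all peaks and 7.94 over the 8487 peaks in reach of a protein-coding gene. Their median −log10 q was 40.7, against 47.8 over all peaks and 50.4 over those in reach of a protein-coding gene. The lower quartile was higher for the member peaks than for all peaks (29.4 against 26.8) and the upper quartile lower (85.2 against 91.5). Of the 11, 6 were above the list median in fold and 4 above it in −log10 q, and 1, at NR1D2, was above the upper quartile by fold. The order of the highest peaks by fold was NR1D2, BHLHE40, DBP, NR1D1, TEF, BHLHE41, NFIL3, RORA and RORB. Without replicate values, it cannot be said which neighbours in this order differ beyond their error.

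The letters of the promoter windows (250 bases before to 50 after each start, both strands searched) were compared with all 22132 windows of protein-coding genes. CACGTG was in at least 1 window of 4 of 10 members, NR1D2, TEF, BHLHE40 and BHLHE41, and in 10.9% of genes with a listed start. In single windows it was found in 5 of 15 for the members and in 8.34% of all. Windows wholly under a MYC peak held it in 14.1% of cases and windows that touched no peak in 6.14%. Windows wholly under a peak had a median share of G and C letters of 67.3%. It was 62.3% over all windows and 68% over the member windows. Whether base composition accounts for these E-box shares was not tested. Of the 15 member windows, 5 lay wholly under a peak, and of these the downstream windows of NR1D2 and TEF held CACGTG. Among all 756 windows under a peak that hold CACGTG, the nearest one was centred a median of 39.5 bp from a summit, and in 20.9% it was within 10 bp, as in NR1D2. At 428 bp, the E-box of TEF was farther from its summit than that median.

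The other elements differed in how common they were over all windows. TTATGTAA was in 1 member window, that of NR1D2 shown above, and in 0.669% of all windows. The canonical E-box and the D-box occurred together in 7 of all 22132 windows, from 6 genes with NR1D2 among them, a combination looked up after the NR1D2 sequence had been seen. AGGTCA was in 1 member window, that of the downstream NFIL3 start, and in 11.9% of all. The wider class CANNTG, which contains the canonical E-box, was in a window of 8 of 10 members and of 70.5% of all genes, so it sets few genes apart. A match is only a run of letters, and no sequence was at hand for the summits of NR1D1, RORA, RORB, BHLHE40 or BHLHE41 or for the inner summit of DBP.

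The core clock genes were set beside the receptors and output regulators with the same rule. Of 13 core genes, 11 had a summit in reach (84.6%), against 47.7% of all protein-coding genes. The 2 without were BMAL1 and CIART. With the stronger 50% of peaks, 3 of the 13 had one, against 27.7% of all protein-coding genes, a share near that background. The highest by −log10 q were CSNK1E, a kinase of the PER proteins (fold 16.1), TIMELESS (14.3), the activator gene CLOCK (13.0), PER3 (10.0) and CSNK1D, another PER kinase (9.55). For core genes with a listed start, 8 of 12 had a summit within 1000 bp of it. The count was 4 of 10 for the receptors and output regulators, and the difference was not tested. Over all protein-coding genes with a listed start the share was 41.5%, so that of the receptors and output regulators lay near it.

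The protein families to which the members belong gave shares below and above the 47.7% of all protein-coding genes. Of 43 other nuclear receptor genes 18 (41.9%) had a summit in reach, with NR1H3, the oxysterol receptor LXRα, highest (fold 15.8). Of 6 bZIP genes related to NFIL3 and the PAR factors 4 had one (66.7%), with CEBPG highest (fold 26.0). Of 10 HES and HEY genes, bHLH relatives of the DEC genes, 2 had one (20%), and the higher of them by −log10 q was HEY1 (fold 6.08). Both DEC genes had peaks in reach, but neither had a summit inside the gene or within 1000 bp of it. The BHLHE41 summit also lay inside the span of SSPN. All the peaks of the DEC genes were below the list median in −log10 q.

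**Figure D4:**
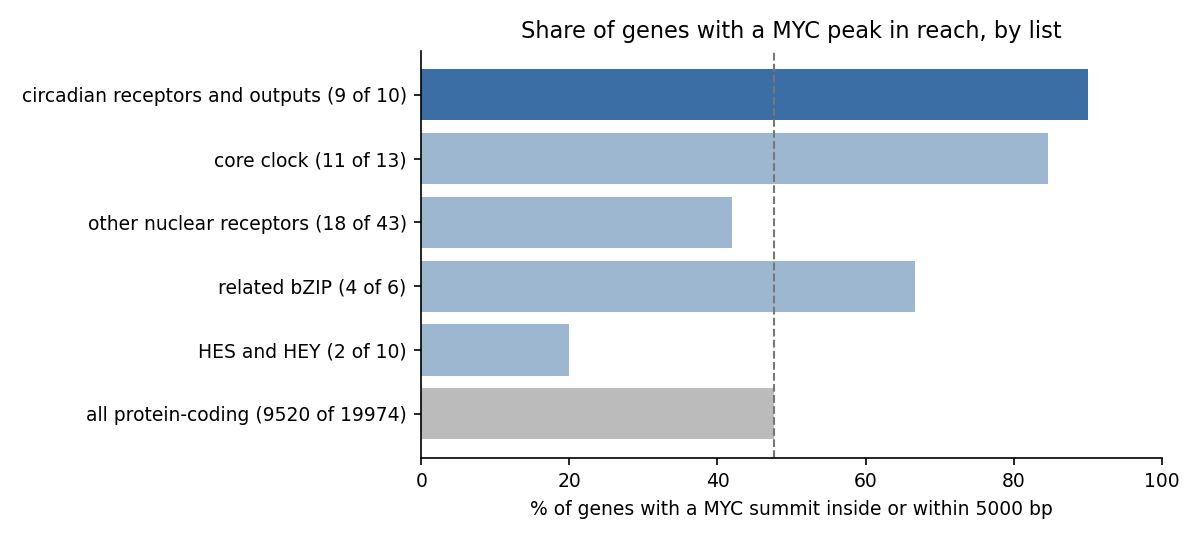
Share of genes with a MYC summit inside or within 5000 bp, by gene list, with counts in brackets and the share of all 19974 protein-coding genes as a dashed line (47.7%). The receptors and output regulators (9 of 10), the core clock (11 of 13) and the related bZIP genes (4 of 6) lie above the line. The other nuclear receptors (18 of 43) and the HES and HEY genes (2 of 10) lie below it.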

How the data were processed

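MYC peaks were analysed from 1 list for 2 IP libraries and 1 input library. MACS2, Bowtie2, Picard, SAMtools and cutadapt are listed, without versions or roles, per the submitters' processing notes, with the builds hg19, mm10 and hg38, and the name of the list gives hg38. The deposited list holds the fold enrichment (on a linear scale) and the −log10 q-value per peak, as the authors made them, and a summit offset. How the IP libraries were combined and how mouse reads were used is not given in the sources used here.

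Summits were joined to RefSeq gene spans and listed starts (GRCh38.p14) with Python 3.11.15 and pandas 2.3.3, and the joins were checked on simulated data. All 10 members matched by symbol, with 15 promoter windows. The starts table lists 15812 of 19974 protein-coding genes. Exons and introns were not used here. No test was run, since 1 list gives no replicate spread and genes are not replicates. One gene of the core clock list is not reported here and is left out of its counts. Members and gene lists were chosen with earlier results of these data known. All members are named, with protein-coding genes in reach of the same summit, the 5 core clock genes highest by −log10 q and the highest gene of each family list by −log10 q. RNA genes, the 2 core clock genes without a peak, and the combination of E-box and D-box, were named after their values were seen. Alternatives changed the window, summit, peak set and gene assignment.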

Additional observations from a re-analysis of the deposited data

How the results depend on the processing

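In the stronger 50% of peaks (−log10 q of at least 47.8), 3 members had a summit in reach (NR1D2, DBP and TEF) with 4 summits, and 3 of 13 core clock genes had one, against 27.7% of all protein-coding genes. With a window of 0 bp the members kept 7 of their 11 summits, and BHLHE40 and BHLHE41 dropped out of the 9 genes. Where only the nearest protein-coding gene takes a peak, 8 members remained, without BHLHE41. For summits within 1000 bp of a gene end, the 2 members became 1 with a window of 500 bp, 6 with 5000 bp, 6 with any base of the peak and 4 with listed starts in place of ends. The median fold of the member peaks was 8.31 with a window of 1000 bp and also with a −log10 q of at least 10, which leaves out RORB. The E-box class CANNTG was in 8 members in place of 4. The count of members in reach lay between 7 and 9 under the other settings. The setting with summits within 5000 bp of a listed start (8 members, median fold 7.99) was added after the data were seen. No paired analysis was possible because 1 peak list holds no values per library. For the same reason no library could be left out.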
